A study of Mus musculus with 18 samples.

Results

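The 10 receptor genes described here belong to macrophages and dendritic cells, and they were followed through mouse skin that had been operated on and, in one arm, stretched by an implant. The genes were Cd209a, Cd209b, Cd209d, Cd209f, Cd209g, Mrc1, Mgl2, Clec10a, Cd163 and Msr1, taken by symbol from the count matrices, and all 10 were present among the 32285 genes listed. They were selected on earlier results of these data, in which genes of this group set myeloid clusters apart. Whether their differences between arms also entered the choice is not recorded. Their levels across cell types are therefore given as a description, and their differences between arms are no independent evidence. In short, 7 of the 10 (the 5 Cd209 genes, Mgl2 and Clec10a) were lower and Msr1 was higher in macrophages and monocytes of expanded skin, whereas differences in Mrc1 and Cd163 did not pass the test there. Of all genes tested, 10.8% were lower and 8.35% higher. A resident macrophage-like cluster held 40.5% of these cells in control and 4.14% in expanded skin, and its part was not tested. Within it, on day 1, Cd209a, Cd209d and Clec10a were not lower in expanded skin. Cd209b, Cd209f, Cd209g and Mgl2 were lower there, some within counting error. With each pair of libraries of a day and round as a replicate block, Cd163 passed as lower too in all macrophages and monocytes. Only the calls of Msr1 and Mgl2 held there without any single library. Msr1 was also 11.0-fold higher in dermal dendritic-like cells of expanded skin, from a mean of 11.9 counts per 1e6 in control skin.

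C-type lectin receptors bind sugars on microbes, on dying cells and on the body's own glycoproteins, and many carry their ligand into the cell. Mouse Cd209 genes are relatives of human DC-SIGN. Mrc1 encodes the mannose receptor CD206, and Mgl2 and Clec10a encode the galactose-type lectins CD301b and CD301a. Cd163 and Msr1 are scavenger receptors: Cd163 clears haptoglobin-haemoglobin complexes, and Msr1 (scavenger receptor A) takes up modified lipoproteins and debris. In skin, CD206, CD163 and CD301 are widely used to mark resident dermal macrophages, and CD301b also marks a subset of dermal dendritic cells.

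The cells came from 10 droplet 3′ mRNA libraries, 5 per arm. All mice underwent the operation, in which a path under the skin was opened from the tail end of the back towards the neck. Expanded mice then carried a stitched-in expander, a hydrogel, under the skin, and control mice carried no implant, so that both arms shared the wound. Each arm had day 1 and day 2 libraries from sequencing rounds 1 and 2 and a day 4 library from round 1. Strain, sex and age were not given in the sources used here. Sorting kept live cells by exclusion of the dye DAPI, without a gate for any cell type. Mice of an arm, day and round were pooled in 1 reaction, so an arm and its reaction cannot be told apart within a round, and a day and its reaction cannot be told apart within an arm. Hashing antibodies marked the mouse of origin for 14 mice per arm, in all rounds but the first of day 1.

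After filtering, 45488 cells remained, between 1853 and 7956 per library, from 17726740 to 75470720 unique molecular identifiers (UMIs) per library before filtering. Any pair of libraries shared between 1 and 23 cell barcodes, at most 0.377% of the smaller library's barcodes before filtering. The 8664 myeloid cells fell into 15 clusters, made without the 10 receptor genes. Cluster 0 was resident macrophage-like (Folr2, F13a1, Cbr2, Gas6), cluster 2 MHC class II C1q macrophage-like (C1qa, C1qb, Apoe), and clusters 1, 5 and 8 monocyte or recruited macrophage-like (Ly6c2, Plac8, Chil3). A marker counted at 2-fold or more over the other myeloid clusters, in at least 10% of cells. In cluster 2 the class II markers H2-Aa, H2-Ab1 and Cd74 did not count, so its name rests on the other genes. The share of markers that counted there was 0.6 for this name and 0.545 for resident macrophages. The name of cluster 5 was not stable: its leading genes (Cxcl9, Ccn3, Slc4a11) held no monocyte marker, and clusters led by Edn1, Cxcl9 and Slc4a11 stayed unnamed at subset resolution 1.5 and with the receptor genes in the clustering. It held 580 control cells of its class, beside 49 in cluster 1 and 106 in cluster 8. Cluster 3 had general macrophage markers (Fcgr1, Cd68) and no subset name, and clusters 4, 6 and 7 were dermal dendritic-like (H2-DMb2, Itgax, Tnip3). Flt3 and Napsa, from the same marker list, counted in none of these dendritic-like clusters, and Zbtb46 did not count in cluster 7. Flt3, Napsa and Zbtb46 did count in cluster 9, which stayed unnamed. Macrophages or monocytes, clusters 0, 1, 2, 3, 5 and 8 together, numbered 3112 in control and 2489 in expanded skin. The control library of day 2 round 2 stood apart from the other controls: 12.1% of its macrophages or monocytes were in cluster 0 and 27.4% in cluster 3, where the control libraries together had 40.5% and 8.10%.

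The Cd209 genes lie side by side. On the GRCm38 (mm10) build, 7 Cd209 genes span 394 kb of chromosome 8, from 3743397 to 4137707, and Cd209c and Cd209e are the 2 that are not among the receptors followed here. Cd209a occupies positions 3743397 to 3748984, Cd209d 3871824 to 3878555, Cd209b 3917655 to 3926844 and Cd209f 4102787 to 4105835, all on the minus strand. Cd209g occupies 4134098 to 4137707 on the plus strand, 28.3 kb from Cd209f. Msr1 is on the same chromosome at 39581685 to 39642673 (minus strand). Mgl2 (70130329 to 70137550) and Clec10a (70156197 to 70170834) are plus-strand neighbours on chromosome 11, 18.6 kb apart. Mrc1 spans 14229392 to 14332057 of chromosome 2 and Cd163 124304656 to 124330527 of chromosome 6, each on the plus strand. Because the libraries read 3′ ends, the last 500 bases of each gene's longest annotated transcript were compared in runs of 31 bases. No run was shared among the Cd209 genes, so their counts were separable by this measure. Of the Clec10a runs, 24.7% also occurred in the Mgl2 transcript. This leaves Clec10a counts less certain, and how far reads were affected was not measured. No run from the end of Mgl2 occurred in Clec10a.

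Cd209f and Cd209g had the most similar pattern across cell classes of all members, and their promoters are shown for that reason. RefSeq promoter windows (GRCm38.p6) were at hand for 8 of the 10 receptors, all but Clec10a and Msr1. In the 250 bases before their RefSeq starts Cd209f and Cd209g share an identical run of 154 bases, whereas the next longest run shared by any pair of Cd209 windows was 12 bases. The printed stretches end where an annotated exon of a coding transcript begins, at chr8:4105836-4106014 on the minus strand for Cd209f and chr8:4134486-4134651 on the plus strand for Cd209g. Capitals mark the printed part of the shared run, 83 bases in Cd209f and 84 in Cd209g. The other 71 and 70 bases of the run lie past that exon start. The gene span given above for Cd209g, from GENCODE, begins at 4134098, so its printed stretch lies inside that span.
Cd209f: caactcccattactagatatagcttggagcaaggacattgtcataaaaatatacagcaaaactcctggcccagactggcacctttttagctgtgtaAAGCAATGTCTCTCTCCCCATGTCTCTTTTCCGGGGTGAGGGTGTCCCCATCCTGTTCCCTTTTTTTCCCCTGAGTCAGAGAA
Cd209g: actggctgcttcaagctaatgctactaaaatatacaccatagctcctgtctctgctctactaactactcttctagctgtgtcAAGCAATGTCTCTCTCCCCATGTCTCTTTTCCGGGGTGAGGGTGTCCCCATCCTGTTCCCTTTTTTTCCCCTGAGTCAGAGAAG
Near the end of each capital run stand the letters TGAGTCA, the AP-1 motif. Searched on both strands in the 250 bases before each start, TGAGTCA occurred in 1466 of 32851 windows (4.46%) and, among the receptors, in Cd209f and Cd209g. A match of letters is a description of the sequence and shows no binding.

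Levels are given in CPM, the UMIs of a gene per 1e6 UMIs of a cell class summed within a library, and a value compares classes for 1 gene rather than genes with each other. Cd209f and Cd209g were almost confined to the resident macrophage-like cluster among the classes measured. A shallow, unnamed cluster of 156 cells, with Ccl8, Cd209f, Folr2 and Cd209g among its leading genes, was left out of these classes. In control skin Cd209f was at 607 ± 195 CPM in resident macrophage-like cells (SD, n = 5 libraries), 19.1 ± 8.92 in C1q macrophage-like cells and 0.918 in monocyte or recruited macrophage-like cells. Cd209g followed with 341 ± 101, 14.5 ± 12.4 and 0.543 CPM in the same 3 classes. In dermal dendritic-like cells Cd209f averaged 0.597 and Cd209g 0.230 CPM. The pair took no part in the clustering, and it led the list of genes that set the resident macrophage-like cluster apart. No test is attached.

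The other 3 Cd209 genes were shared between resident macrophages and dendritic cells. Cd209a was highest in control dermal dendritic-like cells at 889 ± 192 CPM and lower in resident macrophage-like cells at 380 ± 65.0 (SD, n = 5 libraries each), with no overlap between the 2 sets of libraries. Cd209d was at 1250 ± 175 CPM in resident macrophage-like and 935 ± 49.0 in dermal dendritic-like cells. Cd209b was at 358 ± 72.0 and 134 ± 32.7 CPM in these classes. C1q macrophage-like cells had 244 ± 140 CPM of Cd209a, 302 ± 113 of Cd209d and 31.1 ± 15.7 of Cd209b. For Cd209a that level and the 267 ± 97.2 CPM of monocyte or recruited macrophage-like cells did not differ beyond their spread.

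Mannose receptor Mrc1 was at 3418 ± 290 CPM in resident, 1960 ± 354 in C1q and 944 ± 279 in monocyte or recruited macrophage-like cells of control skin (SD, n = 5 libraries each). Cluster 3, at 3084 and 4183 CPM in 2 control libraries, lay on both sides of the resident level. Dermal dendritic-like cells, at 834 ± 142, overlapped the last of these. Outside the myeloid cells Mrc1 was found in lymphatic endothelial-like cells at 52.9 ± 14.9 CPM. Cd163 was likewise highest in resident macrophage-like cells, at 606 ± 119 CPM, against 174 ± 79.6 in C1q macrophage-like, 189 ± 113 in dermal dendritic-like and 11.8 ± 5.28 in monocyte or recruited macrophage-like cells. Clec10a was at 776 ± 120 CPM in resident macrophage-like and 246 ± 86.2 in C1q macrophage-like cells. A second site of Clec10a was the mast-like class, with 514 CPM on average over the 5 control libraries and between 208 and 795 in single ones, where Mgl2 averaged 1.67 CPM.

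The galactose lectin Mgl2 had another order, with dermal dendritic-like cells first at 1821 ± 416 CPM. Its levels in C1q macrophage-like (572 ± 153), resident macrophage-like (550 ± 294) and monocyte or recruited macrophage-like cells (712 ± 348) did not differ beyond their spread. Type 1 dendritic-like cells held 178 CPM of Mgl2, and migratory dendritic-like cells 211 CPM in 2 libraries. Msr1, among the named macrophage classes of control skin, was at 190 ± 42.2 CPM in monocyte or recruited macrophage-like cells, 155 ± 30.4 in C1q macrophage-like and 123 ± 25.5 in resident macrophage-like cells. These 3 ranges overlapped. In cluster 3 the 2 control libraries with enough cells had 324 and 350 CPM of Msr1. In dermal dendritic-like cells of control skin it was at 11.9 ± 7.07 CPM.

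**Figure D1:**
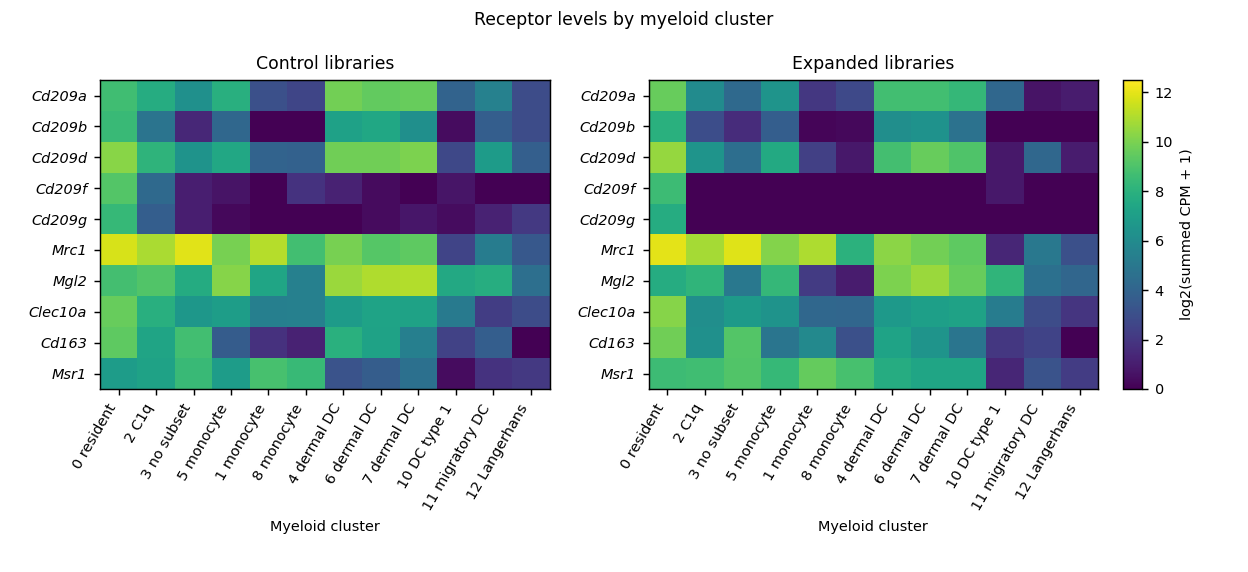
Level of the 10 receptor genes (rows, as log2(CPM + 1) by colour) in single myeloid clusters (columns), control and expanded skin in separate panels. UMIs were summed over all libraries of an arm, so large libraries weigh more. Clusters with fewer than 20 cells in an arm are left blank. In control skin Cd209f and Cd209g are high in the resident macrophage-like column alone, and Mgl2 and Cd209a peak in the dermal dendritic-like columns.

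Detection in single cells was read as the share of cells with a UMI. After thinning every cell to 2000 UMIs, a UMI of Mrc1 was found in 98.6% of control resident macrophage-like cells, of Cd209d in 70.9%, of Clec10a in 69.6%, of Cd163 in 51.8%, of Cd209f in 47.7%, of Mgl2 in 47.2%, of Cd209a in 44.5%, of Cd209g in 36.3% and of Cd209b in 35.1%. Without thinning the share of Cd209f was 62.5%. The background share from free RNA, read from T cell or innate lymphoid-like cells, was 0.119% for Cd209f and 1.78% for Mrc1, at a median of 3724.5 UMIs per cell against 6261 in the resident cells. Among 1186 thinned resident cells, 18.9% had none of the 5 Cd209 genes and 6.66% had all 5. Cd209g was detected in 55.8% of the 566 cells with Cd209f and in 18.4% of the 620 without it. The other Cd209 genes also leaned this way: Cd209d was detected in 87.3% and 56.0%, and Cd209b in 48.6% and 22.7%. Msr1, in contrast, was detected in 19.3% of the cells with Cd209f and 19.8% of those without. These shares describe cells of 5 libraries that were thinned to equal depth, and they carry no test.

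Likeness between genes was described by the correlation of log2(CPM + 1) over 19 cell classes, among 14343 genes with at least 5 CPM in a class. The classes share their libraries, and the values are descriptions. Cd209f and Cd209g were each other's nearest gene (r = 0.965), followed for each by Slc7a13 and Tnfrsf17. Cd209a and Mgl2 were each other's nearest (r = 0.960), with Cd209e next for Cd209a and Slamf9 and Pld4 next for Mgl2. Cd209b came closest to Cd209c (r = 0.917) and Cd209d to Ticam2 (r = 0.936). The nearest genes of Mrc1 were Ticam2 (r = 0.967), Fcgr1 and Ms4a4a, and those of Cd163 were Mrc1 (r = 0.935), Slc39a12 and Fcna. Clec10a had Entpd7, Pira2 and Fcgr3 closest. Msr1 was closest to Fcgr1 (r = 0.971), which encodes the high-affinity IgG receptor, and then to Tfec and Ccl9.

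The first comparison asked how the receptors differed between expanded and control skin in all macrophages or monocytes. In this class 8 of the 10 receptors passed the test, 7 lower and 1 higher in expanded skin. Of all 11413 genes tested, 19.1% passed in either direction, 10.8% lower and 8.35% higher. The median log2 fold change of the 10 receptors was -3.04, beside 0.00 over all genes. All p-values here and below are from edgeR's quasi-likelihood test with Benjamini-Hochberg adjustment over all genes tested, with day as a covariate in comparisons of libraries. Libraries held between 141 and 1093 such cells. In a summed class, fewer cells of a subset and less RNA per cell cannot be told apart.

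Cd209f was at 353, 192, 484, 51.3 and 224 CPM in the control libraries of day 1 round 1, day 1 round 2, day 2 round 1, day 2 round 2 and day 4. The expanded libraries, in the same order, had 155, 9.77, 0.135, 10.9 and 0 CPM. Each expanded library was below its control partner, but the day 1 round 1 expanded library lay within the control range. On day 4 no UMI was seen, which at the floor of 3 counts per library made Cd209f at least 460-fold lower. That expanded library held 5 resident macrophage-like cells, against 255 in its control partner. The log2 fold change over all days was -4.60 (SE 1.43, adjusted p = 0.0464).
Cd209g was at 209, 96.8, 238, 35.6 and 130 CPM in control libraries and at 74.8, 14.8, 0, 5.24 and 0 CPM in expanded ones. It too was lower in 5 of 5 pairs (log2 fold change -4.48, SE 1.24, adjusted p = 0.0305), at least 1170-fold in day 2 round 1 and at least 267-fold on day 4. The expanded libraries of day 2 round 1, day 2 round 2 and day 4 held 2, 6 and 5 resident macrophage-like cells. Their control partners held 149, 93 and 255. The part of these cell numbers in the folds of Cd209f and Cd209g was not tested.

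Of the more widely shared Cd209 genes, Cd209a was at 447, 325, 376, 150 and 189 CPM in control and 296, 120, 4.74, 15.9 and 18.0 CPM in expanded libraries. Cd209d was at 1076, 588, 837, 260 and 447 CPM against 562, 141, 6.30, 49.6 and 47.3. Cd209b was at 277, 152, 269, 49.9 and 81.1 CPM against 104, 9.77, 0.406, 8.51 and 2.92. The day 1 round 1 expanded library again gave the highest value of its arm for each, inside the control range, and the other expanded libraries lay below their partners by wider margins. The log2 fold changes were -3.04 (SE 0.73, adjusted p = 0.0178) for Cd209a, -3.03 (SE 0.77, adjusted p = 0.0218) for Cd209d and -3.92 (SE 0.97, adjusted p = 0.0205) for Cd209b. The 2 further genes of the locus moved the same way, Cd209c by -2.26 (adjusted p = 0.0147) and Cd209e by -2.13 (adjusted p = 0.0424).

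Mgl2 separated the arms fully, with 381, 304, 654, 819 and 713 CPM in control and 118, 33.4, 16.7, 47.6 and 72.9 CPM in expanded libraries (log2 fold change -3.49, SE 0.49, adjusted p = 0.00258). Clec10a was at 690, 380, 567.9, 196 and 292 CPM in control and 588, 59.3, 46.1, 54.1 and 54.2 CPM in expanded libraries (log2 fold change -2.12, SE 0.61, adjusted p = 0.0349). Here 4 expanded libraries lay under every control library, and the day 1 round 1 one lay among the highest controls.

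Msr1 went the other way. It was at 142, 161, 139, 223 and 117 CPM in control libraries and at 595, 643, 618, 732 and 476 CPM in expanded ones. The lowest expanded library was above the highest control library on every day, and the class was 3.63-fold higher (log2 fold change 1.86, SE 0.15, adjusted p = 3.9e-04).

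For the remaining receptors, Mrc1 was at 3145, 2513, 2575, 2266 and 1734 CPM in control and 3219, 2284, 2584, 1903 and 1023 CPM in expanded libraries. The ranges overlapped, and the difference did not pass the test (log2 fold change -0.34, SE 0.17, adjusted p = 0.189). Cd163 was at 618, 362, 431, 183 and 187 CPM in control and 429, 117, 245, 187 and 73.1 CPM in expanded libraries, lower in 4 of 5 pairs (log2 fold change -0.96, SE 0.35, adjusted p = 0.0801). With each pair of libraries of a day and round as a replicate block, in place of day, Cd163 passed as lower, which made 9 of 10 receptors.

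**Figure D2:**
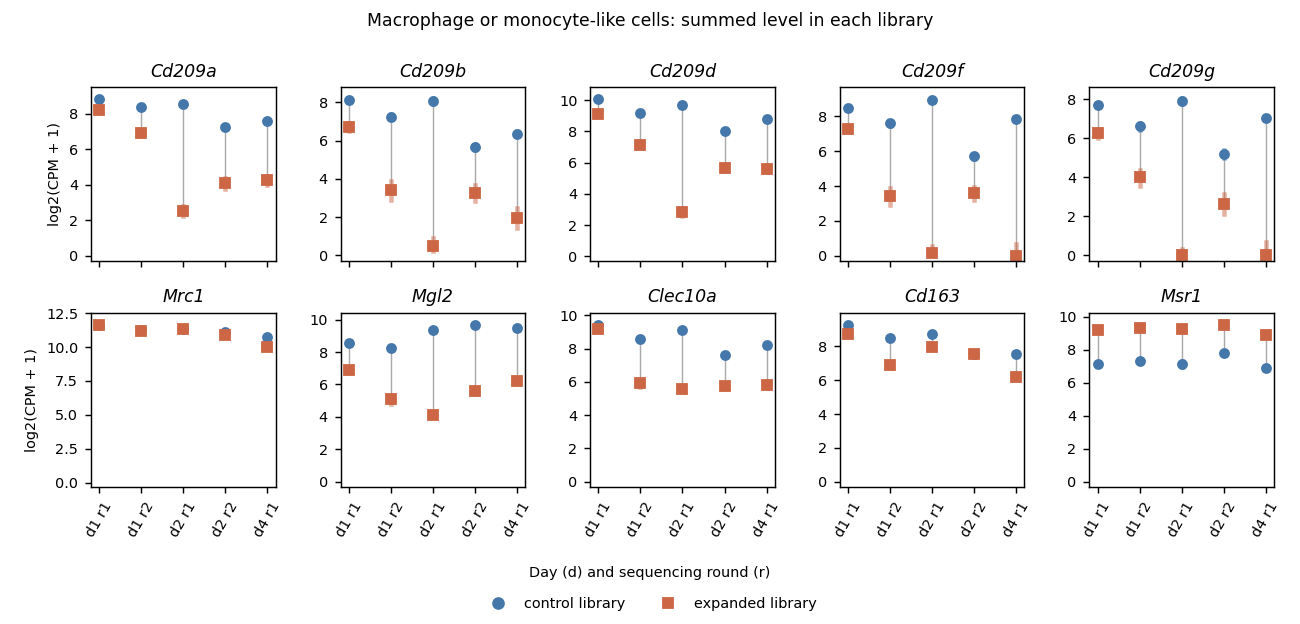
Level of each receptor gene (1 panel each) in macrophages or monocytes of every library, as log2(CPM + 1), by day and sequencing round. Circles are control libraries, squares expanded ones, lines join the pair of a day and round, and bars are 95% Poisson intervals, which cover counting error only. Msr1 is higher in the expanded library of every pair, Mrc1 shows no constant direction, and the Cd209 genes are closest between arms in day 1 round 1.

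These calls rested on few libraries. Leaving out 1 library at a time gave between 2 and 9 receptors past the threshold. Only Msr1 and Mgl2 kept their calls without the control library of day 4, without the expanded library of day 4, or without the expanded library of day 2 round 2. The number was 5 without control day 1 round 1, control day 2 round 1 or expanded day 2 round 1, and 9 without expanded day 1 round 1 or without control day 2 round 2.

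The make-up of the class differed between the arms in the same libraries. Control macrophages or monocytes were mostly in clusters 0 (40.5%), 2 (27.8%) and 5 (18.6%), expanded ones in clusters 1 (47.4%), 3 (25.9%) and 8 (15.5%). The 12 monocyte and recruited macrophage markers summed to 592 to 2934 CPM in control and 5196 to 10245 CPM in expanded libraries, and 12 of 12 rose. Of the 11 resident macrophage markers 7 fell and none rose, with sums of 4690 to 16331 CPM in control and 4145 to 12535 in expanded libraries. Fibroblast markers summed to 352 to 1976 CPM in control and 46.7 to 500 in expanded libraries (6 of 8 lower), and dermal dendritic markers to 284 to 852 and 201 to 364 CPM (7 of 9 tested lower, none higher). Neutrophil markers summed to 70.9 to 143 and 319 to 1831 CPM, of which S100a8 made up 17.2 ± 16.1 and 715 ± 472 (SD, n = 5 each). Of the 6 neutrophil markers tested S100a8 rose and Mmp9 fell. No marker in these lists was at 0 in either arm. The part of each of these in the receptor differences of the summed class was not tested, but levels within clusters follow.

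Within the resident macrophage-like cluster, expanded skin offered 2 libraries with at least 20 cells, both of day 1 (56 cells in round 1 and 34 in round 2, against 472 and 290 in control). With 2 libraries per arm the values are given without a test. Msr1 was at 410 and 337 CPM in expanded and 124 and 152 in control cells, and the 95% Poisson intervals of the arms, which cover counting error only, did not overlap. Monocyte and recruited macrophage markers summed to 621 and 80.8 CPM in rounds 1 and 2 of the expanded cells. Control libraries of this cluster had 30.7 to 152 CPM. Keratinocyte markers summed to 594 and 162 CPM against 13.1 to 85.3 in control. Their part in the Msr1 difference was not tested. None of Cd209a, Cd209d, Clec10a, Cd163 and Mrc1 was lower in these expanded cells, in either round. Cd209a was at 762 and 1109 CPM in expanded against 479 and 367 in control cells, and Cd209d at 1561 and 1334 against 1323 and 1041. Clec10a was at 1495 and 633 CPM against 825 and 582, Cd163 at 1025 and 629 against 798 and 554, and Mrc1 at 4437 and 3754 against 3576 and 3298. Cd209b was lower in both rounds, at 292 and 98.8 CPM against 367 and 305. Cd209f was at 449 and 130 CPM against 480 and 417, Cd209g at 217 and 198 against 285 and 204, and Mgl2 at 242 and 216 against 329 and 281. In round 1 the intervals of Cd209f overlapped, and in round 2 those of Cd209g, Mgl2, Clec10a and Cd163 did.

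Msr1 and Mgl2 kept their direction through nearly all other macrophage clusters. For Msr1 the expanded libraries of cluster 3 ranged from 440 to 813 CPM above 324 and 350 in control, and those of cluster 5 were at 262 and 317 CPM against 80.2 to 148 in control. In cluster 1 the single control library had 403 CPM and the expanded ones 672 to 905, and in cluster 2 the single expanded library had 261 CPM against 113 to 187. Of these clusters only cluster 8, monocyte or recruited macrophage-like, had arms that overlapped, at 229 to 564 CPM in expanded and 338 to 354 in control libraries. Mgl2 was lower without overlap in clusters 2 (247 CPM in 1 expanded library against 317 to 707), 3 (20.5 to 107 against 208 to 235), 5 (263 to 359 against 580 to 1351), 1 (0 to 12.7 against 69.3) and 8 (0 to 4.41 against 20.04 to 153). Mrc1 had no constant direction: it overlapped between arms in cluster 3 (2053 to 4574 CPM in expanded and 3084 to 4183 in control libraries), was lower in cluster 8 (139 to 335 against 443 to 496) and was higher in dendritic cluster 6 (874 and 955 against 502 to 747). The libraries that reached 20 cells in a cluster came from different days in the 2 arms, so these values are not matched by day.

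**Figure D3:**
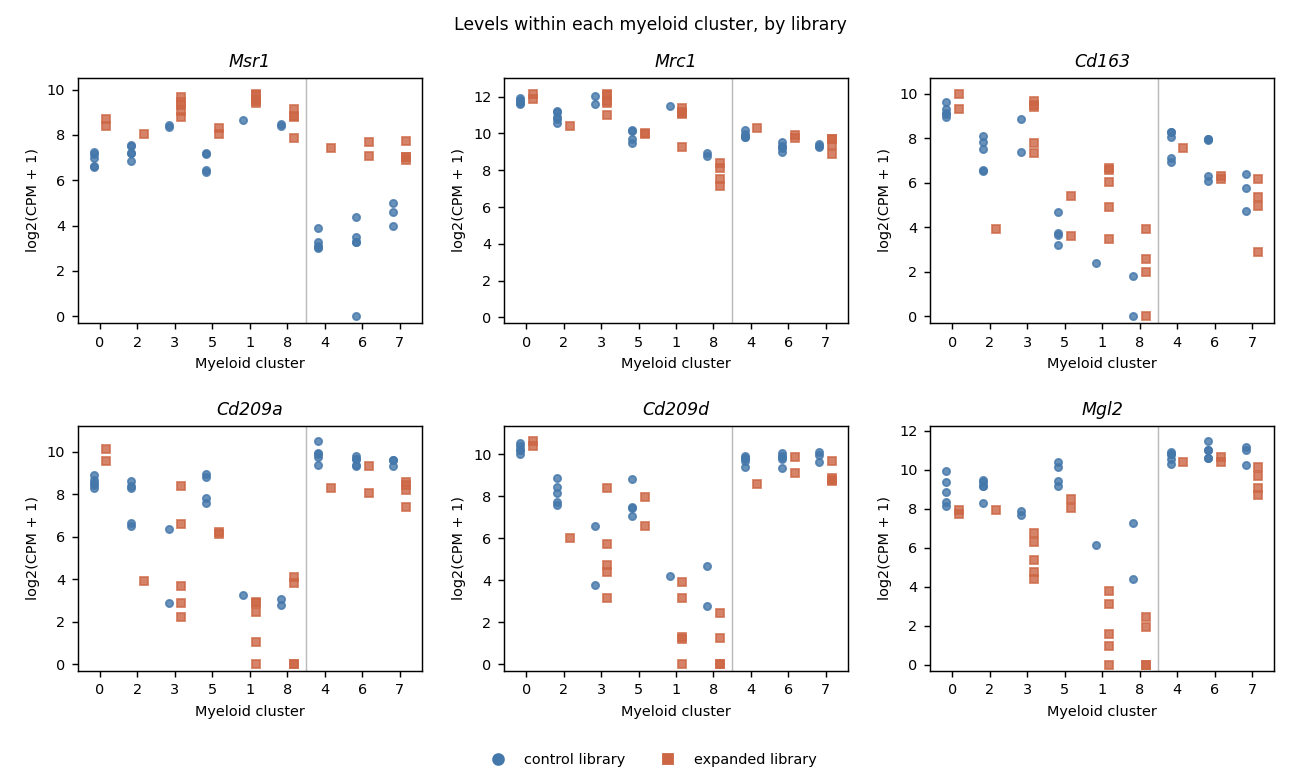
Levels of 6 receptor genes within single myeloid clusters, as log2(CPM + 1), 1 point per library with at least 20 cells in that cluster. Circles are control and squares expanded libraries, and the vertical line parts macrophage or monocyte clusters (left) from dermal dendritic-like clusters (right). Msr1 is higher in expanded libraries in all clusters drawn except 8, and Mrc1 has no constant direction.

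Monocyte or recruited macrophage-like cells, taken as a class, had enough cells in all 10 libraries for a test (21 to 735 per library). The number of calls changed when cluster 5, whose name was not stable, was left out. That also left 3 control libraries, so the loss of these cells and the loss of libraries cannot be told apart. Without cluster 5, in a comparison of 3 control with 5 expanded libraries added after the data were seen, 2 receptors passed edgeR's test in place of 7, where 0.456% of all genes did: Mgl2, lower (log2 fold change -4.68, SE 0.73, adjusted p = 0.0185), and Cd163, higher (4.44, SE 0.80, adjusted p = 0.0428). At subset resolution 1.5 the same 2 passed, and none did at resolution 0.4 or with the receptor genes left in the clustering (2 in each at an unadjusted p under 0.05), again with 3 control libraries. Cd209a and Clec10a, lower with cluster 5, had log2 fold changes of 1.10 and 0.088 at resolution 0.4. The values that follow include cluster 5. Here 7 of the 8 receptors that could be tested passed, 5 lower and 2 higher in expanded skin, where 10.1% of all genes tested passed, 5.20% lower and 4.89% higher. Cd209f and Cd209g were too low to enter the test. Mgl2 was at 413, 357, 643, 1104 and 1043 CPM in control and 18.0, 7.57, 12.2, 32.2 and 82.7 in expanded libraries, in the order of libraries above, a 30.6-fold difference with no overlap (adjusted p = 2.4e-06). Cd209a was at 315, 254, 407, 159 and 203 CPM against 24.9, 16.3, 3.85, 8.94 and 24.1 (20.6-fold lower, adjusted p = 1.0e-05). Cd209d was 12.6-fold lower (adjusted p = 0.00112), Cd209b 11.6-fold (adjusted p = 0.00186) and Clec10a 5.12-fold (adjusted p = 0.00105), each in 5 of 5 pairs.

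Both scavenger receptors were higher in this class with cluster 5 included. Msr1 was at 185, 225, 227, 188 and 123 CPM in control and 753, 670, 659, 723 and 508 in expanded libraries (3.39-fold higher, adjusted p = 7.0e-06), and 24.8% of control against 66.6% of expanded cells had a UMI after thinning. Cd163 was low, at 8.14, 12.52, 20.6, 10.5 and 7.31 CPM in control and 81.6, 26.3, 49.7, 52.8 and 18.2 in expanded libraries (3.69-fold higher, adjusted p = 0.00305, 5 of 5 pairs). Mrc1 was higher in 4 of 5 pairs, at 944 ± 279 CPM in control and 1582 ± 639 in expanded libraries (SD, n = 5), and did not pass (adjusted p = 0.141). The log2 fold change of Msr1 was 0.82 without cluster 5 (adjusted p = 0.113), beside 1.76 with it.
Control cells of the class were mainly of cluster 5 and expanded cells of cluster 1. Dermal dendritic markers, 8 of 10 of them lower, summed to 926 to 1544 CPM in control and 232 to 456 in expanded libraries, and fibroblast markers to 268 to 1536 and 33.0 to 231. Neutrophil markers, 2 of 4 tested higher, summed to 132 to 454 and 408 to 2233 CPM, with Retnlg and Mmp9 at 0 in control. Resident macrophage markers summed to 416 to 1258 CPM in control, with Lyve1 at 0, and 1150 to 2597 in expanded libraries. Their part in the receptor differences was not tested. Within cluster 5, Cd209a was at 69.7 and 74.5 CPM in 2 expanded libraries against 194 to 492.7 in control, while Cd209d and Clec10a overlapped between the arms.

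The second comparison concerned dermal dendritic-like cells, 1410 in control and 445 in expanded skin and 59 to 413 per library. Of the 8 receptors tested, 5 fell and 1 rose in expanded skin, where 15.3% of 8775 genes passed in either direction, 8.75% lower and 6.53% higher. Msr1 was at 9.79, 8.45, 4.38, 23.2 and 13.6 CPM in control and at 177, 185, 217, 131 and 115 CPM in expanded libraries. Every expanded library was above every control library (11.0-fold, log2 fold change 3.46, SE 0.29, adjusted p = 8.8e-05). A UMI of Msr1 was found in 2.10% of control and 25.2% of expanded dermal dendritic-like cells after thinning to equal depth, and in 8.58% and 63.1% without thinning. In T cell or innate lymphoid-like cells the thinned shares were 0.119% and 0.321%, and in keratinocyte-like cells 0.173% and 0.106%. Median depths were 10480.5 and 13780 UMIs in the dendritic cells, 3724.5 and 4740 in T cell or innate lymphoid-like cells and 9629 and 13296 in keratinocyte-like cells of control and expanded skin. The rise was present in each dendritic cluster: 173 CPM against 6.99 to 13.9 in cluster 4, 134 and 208 against 0 to 19.5 in cluster 6, and 117 to 215 against 14.7 to 30.6 in cluster 7.

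The 2 genes most typical of these dendritic cells were lower. Cd209a was at 927, 811, 1202, 800 and 705 CPM in control and 578, 260, 310, 367 and 333 in expanded libraries, with no overlap (2.87-fold lower, adjusted p = 0.00269). Mgl2 was at 1551, 1313, 1869, 2402 and 1969 CPM against 1449, 1224, 529, 881 and 1313, nearly equal between arms on day 1 and apart on day 2 (2.05-fold lower, adjusted p = 0.0148). Cd209d was at 935 ± 49.0 CPM in control and 608 ± 193 in expanded libraries (SD, n = 5 each; 1.89-fold lower, adjusted p = 0.00602). Cd209b was 3.64-fold lower (134 ± 32.7 against 49.2 ± 30.2 CPM, adjusted p = 0.00567).
Cd163 was at 253, 284, 276, 50.6 and 83.3 CPM in control and 86.5, 100, 40.3, 15.9 and 54.5 in expanded libraries (3.95-fold lower, adjusted p = 0.0141). Its ranges overlapped because the control libraries of day 2 round 2 and day 4 were themselves low. Mrc1 (834 ± 142 against 806 ± 218 CPM, adjusted p = 0.157) and Clec10a (136 ± 34.0 against 143 ± 67.0 CPM, adjusted p = 0.759) did not pass.

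**Figure D4:**
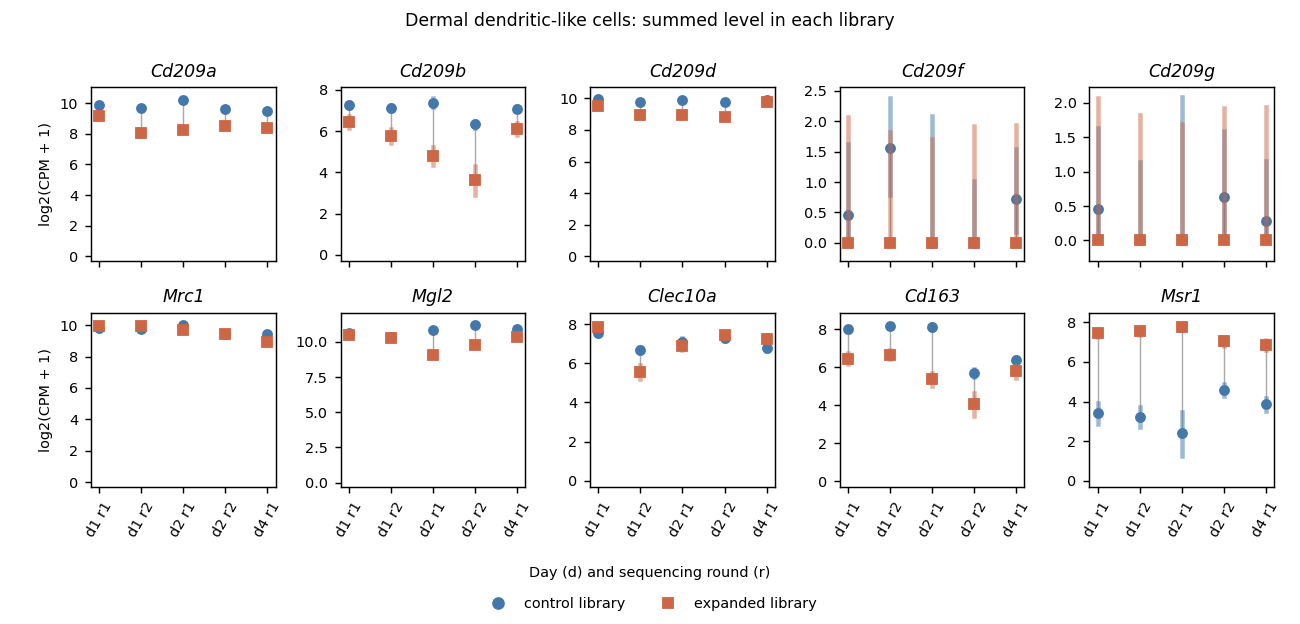
Level of each receptor gene in dermal dendritic-like cells of every library, as log2(CPM + 1), by day and sequencing round, with circles for control, squares for expanded libraries and bars for 95% Poisson intervals of counting error. Msr1 is higher and Cd209a lower in the expanded library of all 5 pairs, while Mrc1 and Clec10a lie close together and Cd209f and Cd209g are near 0.

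Cluster 4 held the largest share of control cells of this class (48.0%), and clusters 7 (48.8%) and 6 (39.6%) held most expanded cells. Cd209a was lower within each of these: 309 CPM in 1 expanded library against 671 to 1423 in cluster 4, 264 and 640 against 641 to 889 in cluster 6, and 166 to 375 against 643 to 781 in cluster 7. Mgl2 was lower without overlap in cluster 7, at 425 to 1145 against 1226 to 2350 CPM, and overlapped in clusters 4 and 6. The summed monocyte and recruited macrophage markers overlapped between arms in these cells (678 to 1126 CPM in control, with Arg1 at 0, and 838 to 1416 in expanded libraries, 2 of 9 tested higher and 1 lower). Resident macrophage markers also overlapped, at 76.1 to 225 and 97.8 to 262 CPM (1 of 6 tested higher, 1 lower; Lyve1 at 0 in control). Fibroblast markers, 6 of 6 tested lower, summed to 176 to 1237 CPM in control and 46.8 to 267 in expanded libraries. Of 10 dermal dendritic markers 4 fell, among them Cbfa2t3, Zbtb46 and Tnip3, and 1 rose, with sums of 1794 to 3863 CPM in control and 1506 to 2336 in expanded libraries. Of 4 neutrophil markers tested 2 rose, S100a9 from 0.109 to 8.64 and S100a8 from 0.143 to 6.72 CPM on average, while the summed neutrophil markers overlapped (215 to 557 and 175 to 764 CPM, with Retnlg and Mmp9 at 0 in both arms). The part of these markers in the receptor differences was not tested. When the receptor genes were left in the genes used for clustering, 3 receptors passed in place of 6, namely Cd209a, Cd209b and Msr1.

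The hashed mice gave the same comparison by day with animals as replicates, counting mice with at least 20 cells of the class. On day 2, with 7 mice per arm, 8 of 10 receptors passed in macrophages or monocytes, where 32.5% of 10486 genes passed. Cd209f had a lowest, median and highest value of 1.72, 76.2 and 584 CPM in control mice and 0, 0.185 and 17.9 in expanded mice (110.3-fold lower, adjusted p = 1.7e-07). For Cd209g the values were 3.44, 62.2 and 289 CPM against 0, 0 and 20.1 (149-fold lower, adjusted p = 8.5e-07). The ranges of both overlapped through control mice of low level and an expanded mouse of high level. Cd209a ranged without overlap from 72.8 to 501 CPM (median 219) in control and from 0 to 52.6 (median 4.81) in expanded mice (adjusted p = 3.4e-07). Mgl2 ranged from 369 to 1183 CPM against 6.51 to 136 (adjusted p = 2.7e-06), Clec10a from 127 to 657 against 9.06 to 82.2 (adjusted p = 7.5e-06) and Msr1 from 101 to 284 against 497 to 817 (adjusted p = 2.5e-07), each without overlap. Cd209b (57.4-fold, adjusted p = 3.8e-07) and Cd209d (24.3-fold, adjusted p = 2.6e-05) were lower with overlap. Mrc1 (adjusted p = 0.706) and Cd163 (adjusted p = 0.651) did not pass. Median Cd163 was 216 CPM in control and 206 in expanded mice.

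On day 4, with 4 mice per arm, the 8 receptors called were the same, where 16.4% of genes passed. No UMI of Cd209f or Cd209g was seen in any of the 4 expanded mice, against 109 to 371 and 45.0 to 230 CPM in control mice. The whole expanded library of day 4 held 5 resident macrophage-like cells, against 255 in the control library. Mgl2 was 6.25-fold lower (adjusted p = 0.0113), Cd209a 9.02-fold (adjusted p = 0.00145), Cd209b 25.9-fold (adjusted p = 6.0e-04), Cd209d 6.08-fold (adjusted p = 0.0354) and Clec10a 5.13-fold (adjusted p = 0.003). Msr1 was 3.17-fold higher, at 308 to 559 against 104 to 189 CPM (adjusted p = 1.8e-04). Day 1 had only 2 control mice and 1 expanded mouse with enough cells, and the single expanded mouse was assumed to vary like the mice of the other groups. There 4 receptors passed, where 11.1% of genes did: Cd209b, Cd209f and Clec10a lower and Msr1 higher, at 664 CPM against 143 and 176 (adjusted p = 0.00389). More receptors passed on day 1 without a filter on low counts, a fit to which the 11.1% does not apply. Fewer passed without control mouse 1, which left 1 mouse per arm under the same assumption.

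**Figure D5:**
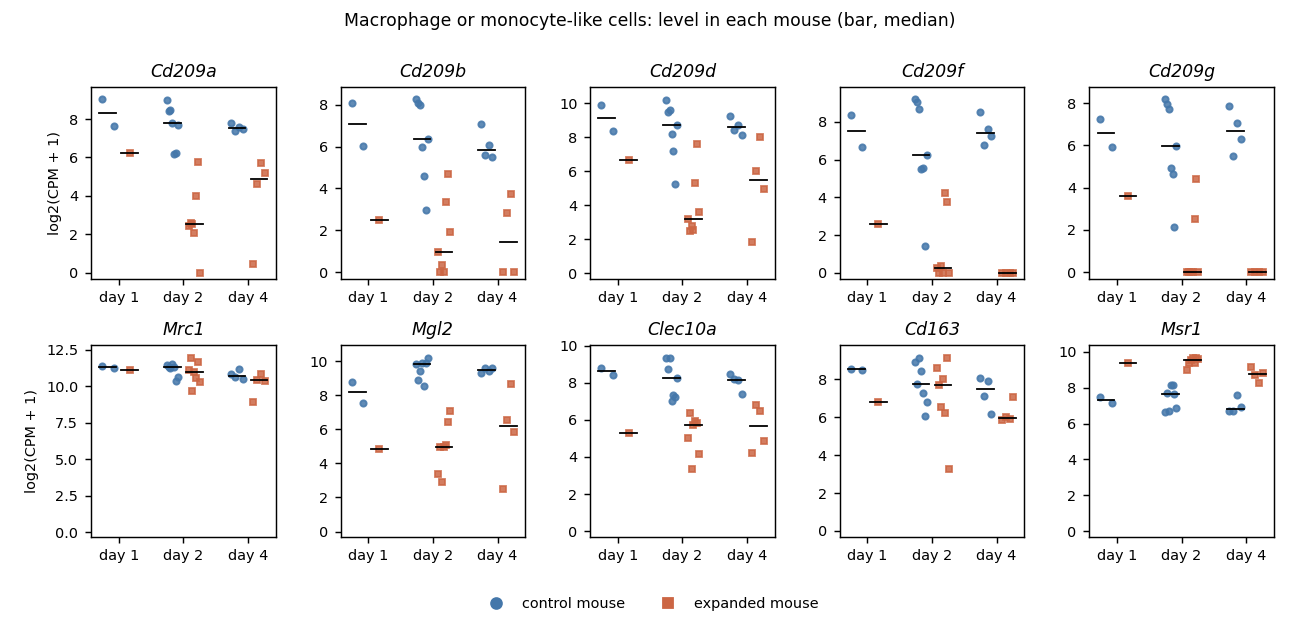
Level of the receptor genes in macrophages or monocytes of each hashed mouse with at least 20 such cells, as log2(CPM + 1), by day, with circles for control and squares for expanded mice. On days 2 and 4 the mice of the 2 arms do not overlap for Msr1 and Cd209a, and Mrc1 and Cd163 overlap on both days.

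Day 4 was compared with day 1 within each arm. In macrophages or monocytes day 1 held 2 control mice and 1 expanded mouse, so a difference that did not pass is no sign that the levels were alike. No receptor passed between day 1 and day 4, in control mice (6.76% of genes passed) or in expanded mice (5.68%). At an unadjusted p under 0.05 there were 0 receptors in control and 3 in expanded mice (Cd209a, Cd209f and Cd209g, all lower on day 4), and DESeq2 called 0 and 1. The test of whether the arm difference varied with the day called no receptor either, where 0.0191% of genes passed. Cd209a and Cd209g were under an unadjusted p of 0.05 in it. Without a filter on low counts 4 receptors passed in control mice. Receptors also passed in the other comparisons, which rest on 1 expanded mouse of day 1. The shares of genes above are from the filtered fits and do not apply to the unfiltered ones.

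In dermal dendritic-like cells Msr1 was higher on each day in the mice: 14.3-fold on day 1 (adjusted p = 4.1e-04), 14.1-fold on day 2 (adjusted p = 6.3e-06) and 5.67-fold on day 4 (adjusted p = 0.00851), with 3, 7 and 4 control and 2, 4 and 2 expanded mice. No expanded mouse was below 61.7 CPM and no control mouse above 35.6. Cd209a was lower on each day, by 3.33-fold, 2.95-fold and 2.52-fold (adjusted p = 0.00562, 3.5e-04 and 0.0289). In all, 4 receptors passed on day 1 (3.92% of genes), 6 on day 2 (16.7%) and 2 on day 4 (2.35%). None passed on day 1 without expanded mouse 3 of that day, nor on day 4 without expanded mouse 2 or expanded mouse 3 of that day; each such fit left 1 expanded mouse, assumed to vary like the others. Mgl2 was the receptor whose arm difference varied with the day (adjusted p = 0.0304, where 0.212% of genes passed). Its control and expanded medians were 1276 and 1320 CPM on day 1, 1988 and 531 on day 2, and 1970 and 1782 on day 4, and the arms were separated on day 2 alone (4.17-fold lower, adjusted p = 6.3e-06). This call was lost without control mouse 1 or 2 of day 1, or control mouse 3 of day 2 round 1. It was also lost without control mouse 1 or 2 of day 4, or expanded mouse 3 of day 4. Without a filter on low counts 5 receptors passed, a fit to which the 0.212% does not apply. Cd163 fell in control mice between day 1 and day 4, from a median of 285 to 82.2 CPM (adjusted p = 0.00154, where 5.28% of genes passed), and Cd209d rose in expanded mice from 522 to 1171 CPM (adjusted p = 0.0391, where 3.19% passed). That rise was lost without any 1 of the 4 expanded mice of these days.

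Mrc1 was also tested in lymphatic endothelial-like cells, which are known to carry the mannose receptor. It was at 36.4, 69.3, 37.9, 59.9 and 61.2 CPM in control and 51.8, 43.1, 18.6, 43.8 and 27.4 in expanded libraries, lower in 4 of 5 pairs. The difference did not pass (log2 fold change -0.68, SE 0.26, adjusted p = 0.094, unadjusted p = 0.0156), where 11.4% of genes did, and DESeq2 called 0 as well.

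Related genes were read from the same comparison of macrophages or monocytes by library. The make-up of this class differed between the arms, and its part in the changes below was not tested. In that comparison 8.35% of all genes tested were higher and 10.8% lower, and the counts below stand beside these shares. Of 18 other C-type lectin receptors tested, 3 rose and 6 fell, among them Clec4g (log2 fold change -3.68, adjusted p = 0.00846) and Mrc2, the collagen-binding relative of the mannose receptor (-2.28, adjusted p = 0.0298). Mean levels in control and expanded libraries were 15.6 and 1.90 CPM for Clec4g. For Mrc2 they were 1.53 and 0.436 CPM, near the counting floor. Of 12 other scavenger receptors none rose and 3 fell, where 19.1% of all genes passed in either direction: Timd4, which binds phosphatidylserine on dying cells (-3.93, adjusted p = 0.015), Scara5, a ferritin receptor (-3.28, adjusted p = 0.0075), and Scarf1 (-1.69, adjusted p = 0.0192). These too were low, at 8.21 and 0.782 CPM for Timd4, 2.69 and 0.195 for Scara5 and 7.65 and 2.69 for Scarf1. Fibroblast markers were lower in the same cells, and their part in these falls was not tested.

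Of 18 genes of the interleukin-4 and interleukin-13 response, a programme that includes Mrc1 and Mgl2 in textbook accounts, 3 rose and 6 fell. They did not move as 1 group: Retnla (-7.99, adjusted p = 0.00163) and the chemokine Ccl17 (-3.40, adjusted p = 0.0276) fell, whereas Arg1, the arginase (6.38, adjusted p = 0.0012), and Chil3 (3.30, adjusted p = 0.0246) rose. Arg1 and Chil3 were also among the monocyte and recruited macrophage markers used to name clusters. Ccl17 was among the dermal dendritic markers, and Timd4 among the resident macrophage markers. In haemoglobin and iron handling, the pathway of Cd163, 2 of 13 genes rose and 6 fell. Haptoglobin, Hp, the carrier that Cd163 clears, rose by 3.25 (adjusted p = 7.5e-04) and the siderophore binder Lcn2 by 4.68 (adjusted p = 0.00163). Ceruloplasmin, Cp, fell by 4.74 (adjusted p = 0.00267) and the transferrin receptor Tfrc fell by 1.80 (adjusted p = 0.0249). Of 18 macrophage identity factors and their receptors none rose and 6 fell, including Csf1r, the CSF1 receptor (-1.31, adjusted p = 0.00547), Mef2c (-1.22, adjusted p = 0.00656) and Il10 (-1.83, adjusted p = 0.0109). Among 8 proteases and regulators of receptor shedding, Mmp14 (1.70, adjusted p = 0.00238) and Adam8 (1.498, adjusted p = 0.00846) rose, and Mmp9 (-3.13, adjusted p = 0.0302) and Rhbdf2 (-0.93, adjusted p = 0.0096) fell. These counts, too, stand beside 8.35% of all genes higher and 10.8% lower. The median log2 fold changes of these lists lay between -0.49 and -0.05, beside 0.00 over all genes.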

How the data were processed

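Single-cell 3′ mRNA libraries of mouse skin were analysed, 5 per arm; 8 hashing samples held antibody barcode lists, whose counts were part of the mRNA matrices. The deposited values are UMI counts without normalization. Cell Ranger 6.1.2 and the build mm10 are named in the submitters' processing notes. Filters of 200 genes, 500 UMIs and 10% mitochondrial content kept 47251 of 55174 barcodes. Doublets were removed where Scrublet called them (0.0584% to 2.97% of a library's cells) or where a cell carried more than 1 hashtag, 1763 cells in all. Mice were assigned from hashtag counts with Seurat 5.3.0.

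Cells were clustered without batch correction and without the 10 receptor genes (scanpy 1.11.5, leidenalg 0.10.2, Python 3.11.15; 2000 variable genes, 30 principal components, 15 neighbours, resolution 1, and 0.8 for myeloid cells). Clusters were named by marker lists, with details of the naming set while the clusters were examined; 2 myeloid clusters stayed unnamed, and another carried fibroblast markers. The members and gene lists were chosen with earlier results of these data known.

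Sums of counts over the cells of a class were taken for each library or mouse with at least 20 such cells. They were tested with edgeR 4.0.16 (R 4.3.3) by its quasi-likelihood test, with filterByExpr and TMM scaling. Libraries had day as a term, and mice had groups of arm, day and round. The day 2 comparison of mice averaged both rounds. Genes with an adjusted p of at most 0.05 passed. Named genes are the 10 receptors and, from each list, at most the 4 largest changes that passed and pointed 1 way in 5 of 5 pairs. In simulated counts with known changes, the macrophage comparison by library recovered 44% of genes changed by 1 and 80% of those changed by 2 on the log2 scale. The labels' round number marks a shared sequencing round. Deviations of same-numbered libraries from their group means correlated at 0.232 on day 1 and 0.194 on day 2. The pair of libraries of a day and round was therefore tried as a block, in place of the day term. Other alternatives were DESeq2 1.42.0, RLE scaling, no filter, thinning, other cluster resolutions and leaving out each library or mouse. Positions are from GENCODE M21. Subsets other than monocytes had too few libraries with 20 cells to be tested between arms, and the monocyte class had 3 such control libraries under other clusterings. The class without myeloid cluster 5 was an alternative chosen after seeing the data. The 95% intervals and the floor of 3 counts include only counting error.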

Additional observations from a re-analysis of the deposited data

Results flagged for a closer look

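In 76 groups of 4 to 10 samples examined, 10 had a highest value that stood far from the rest; chance alone flags about 1 in 20 groups. The expanded library of day 1 round 1 was the high one for 5 receptors in macrophages or monocytes: Cd209b at 103.6 CPM (next 9.769), Cd209d at 562.1 (next 141.1), Cd209f at 154.7 (next 10.91), Cd209g at 74.77 (next 14.82) and Clec10a at 588.4 (next 59.29). This library also had the largest share of its macrophages or monocytes in resident cluster 0 among expanded libraries, 39.7%, and the part of that share in the flags was not tested. Among the 7 expanded mice of day 2, mouse 3 of round 2 was the high one for Cd209a (52.61 CPM, next 14.93), Cd209b (24.76, next 9.383), Cd209d (191.9, next 39.67) and Cd209g (20.12, next 4.692). Among expanded mice of day 4, mouse 4 stood apart for Cd163, at 132.8 CPM against 62.64 for the next.

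The arm difference of Mgl2 in dermal dendritic-like cells varied with the day of sampling (edgeR quasi-likelihood test of the interaction, adjusted p = 0.0304). Cd163 moved in opposite directions in 2 myeloid classes: its log2 fold change was 1.883 in monocyte or recruited macrophage-like cells, higher in 5 of 5 pairs, and -1.982 in dermal dendritic-like cells, lower in 5 of 5 pairs. The difference between these classes was not tested. Without myeloid cluster 5 the first value was 4.443.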

How the results depend on the processing

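Receptors called in macrophages or monocytes by library numbered 8, and 2 to 9 when 1 library was left out; DESeq2, no filter on low counts and receptor genes left in the clustering each gave 9, and subset resolution 1.5 gave 10. The replicate block gave 9, adding Cd163, and changed no other receptor's call (6 stayed 6 in dermal dendritic-like, 7 stayed 7 in monocyte or recruited macrophage-like and 0 stayed 0 in lymphatic endothelial-like cells). In dermal dendritic-like cells the 6 calls became 6 to 7 without 1 library and 3 with receptor genes left in the clustering. Monocyte calls stayed at 7 without any 1 library, but fell to 2 with myeloid cluster 5 left out (chosen after seeing the data), 2 at subset resolution 1.5, and 0 at resolution 0.4 or with receptor genes left in the clustering, each with 3 control libraries; macrophage calls without cluster 5 numbered 9, adding Cd163. Lymphatic endothelial calls went from 0 to 0 to 1. In mice, leaving out 1 at a time gave 2 to 5 (main 4), 8 to 8 and 7 to 8 in macrophages or monocytes on days 1, 2 and 4, and 0 to 1 for expanded day 4 against day 1. In dermal dendritic-like cells it gave 0 to 4, 6 to 6 and 0 to 2 by day, 0 to 1 for expanded day 4 against day 1 and 0 to 1 for arm by day. With no filter on low counts, macrophage calls in mice were 4 for control day 4 against day 1. They also rose on day 1, for expanded day 4 against day 1 and for arm by day, each with 1 expanded mouse of day 1. Dendritic calls were 3 for expanded day 4 against day 1 and 5 for arm by day. The shares of all genes given above are from filtered fits and do not apply to either class here. DESeq2 gave 1 and 2 for expanded day 4 against day 1 in these classes. Genes of the other lists called numbered 60, and 46 to 64 without 1 library. Called differences of Cd209a and Clec10a in monocyte or recruited macrophage-like cells reversed at resolution 0.4 (1.095 and 0.088). Leaving out 1 unit turned the sign of 3 log2 fold changes that had not passed: Clec10a in dermal dendritic-like cells (-0.52 to 0.10 over libraries, -0.12 to 0.23 over mice of day 2) and Mrc1 in macrophages or monocytes of day 2 mice (-0.50 to 0.021). Without thinning, shares of control cells with a UMI were 88.4% for Cd209a and 94.96% for Mgl2 (dermal dendritic-like), 53.2% for Msr1 (monocyte or recruited macrophage-like), and 48.1%, 79.3%, 62.5%, 54.3%, 89.6% and 63.1% for Cd209b, Cd209d, Cd209f, Cd209g, Clec10a and Cd163 (resident macrophage-like). Counts over all genes moved most with depth and libraries: 2183 became 1454 after thinning and 1004 to 2544 without 1 library in macrophages or monocytes, 1341 became 391 after thinning, 665 with receptor genes in the clustering, 883 at resolution 1.5 and 662 to 1687 without 1 library in dermal dendritic-like cells, 984 became 586 and 490 to 1188, with 1501 unfiltered and 22 to 52 under the other clusterings or without cluster 5, in monocytes, and 850 became 269 after thinning in lymphatic endothelial-like cells. Low counts limit Cd209f and Cd209g outside resident cells. At 50 cells per mouse, dendritic cells could be compared only on day 1 and for control day 4 against day 1.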

Other observations

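Myeloid cluster 9, which met no class name and was led by Trbc1, Crabp2 and Rbp4, held Cd209a at 558 ± 122 CPM in control libraries (SD, n = 5) and at 273 and 801 CPM in 2 expanded ones. Cluster 13, also unnamed and shallow, had 766.7 CPM of Cd209a in the 1 control library with at least 20 cells. Clec10a in mast-like cells was at 756, 510, 303, 795 and 208 CPM in the control libraries of day 1 rounds 1 and 2, day 2 rounds 1 and 2 and day 4, and at 811, 365 and 327 CPM in 3 expanded libraries. The ranges overlapped.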
